A study of Mus musculus with 6 samples.

Results

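The genes described are 7 markers of the stratum intermedium, stellate reticulum and other non-ameloblast layers of the enamel organ, *Alpl*, *Enpp2*, *Cxcl14*, *Thbd*, *Vat1l*, *Hspb8* and *Nectin1*. They were chosen by name from the 55487 genes of the expression table. Their RNA was measured by RNA-seq at postnatal day (PN) 2.5 in dental epithelium taken from mandibular first molars. The 3 control libraries came from Wnt10aflox/flox mice and the 3 cKO libraries from K14-Cre;Wnt10aflox/flox mice, where the keratin 14 promoter directs Cre recombinase, and so the loss of floxed *Wnt10a*, to epithelial cells. Both groups carry the floxed alleles. Each library was a pool, of 4 molars by the deposited design text and of more by the methods, and mice were used regardless of sex. The values are TPM, a share of each library's transcripts that takes transcript length into account and can be compared between genes.

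The enamel organ is the epithelial part of the tooth germ. Its inner layer becomes the ameloblasts, which secrete enamel matrix, and the stratum intermedium is a thin sheet of cells lying against them that is known for its strong alkaline phosphatase activity. The stellate reticulum is a looser mass of star-shaped cells between that sheet and the outer enamel epithelium. In whole dental epithelium, fewer cells of a layer and less RNA per cell cannot be told apart.

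Of the 7 genes, 6 averaged 1 TPM or more and were tested, and *Vat1l* did not. In 5 of the 6, *Alpl*, *Enpp2*, *Thbd*, *Hspb8* and *Nectin1*, the cKO mean lay at 74.0% to 88.6% of the control mean, and *Cxcl14* lay at 104%. None of these differences passed a test on the values as deposited with the libraries taken as unpaired. In all 7 genes the groups overlapped, against 9.64% of all tested genes in which they did not. The criteria of the study, an unadjusted p below 0.05 and means differing by more than 20% of the control mean, were met by 0 of the 6 genes and by 4.02% of all tested genes. By adjusted p below 0.05 from limma, 0 of the 6 were called, against 0.0146% of all genes, and 0 of the 6 had an unadjusted p below 0.05.

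Promoter sequence is shown for *Alpl* and *Hspb8*, whose levels moved most closely together over the libraries. The windows run from 250 bases before to 50 bases after a start site, come from RefSeq on GRCm38.p6, lie on the minus strand and are written 5′ to 3′. Of the 7 genes, 4 have a window in the table used, and *Enpp2*, *Thbd* and *Nectin1* do not. Capitals mark matches on either strand to 5 motifs, which are CTTTGA and CTTTGT of TCF/LEF factors, TGGGAA of RBPJ, GAANNTTC of heat shock factors, and TATAAA.
*Alpl*, window at chr4:137796335-137796634: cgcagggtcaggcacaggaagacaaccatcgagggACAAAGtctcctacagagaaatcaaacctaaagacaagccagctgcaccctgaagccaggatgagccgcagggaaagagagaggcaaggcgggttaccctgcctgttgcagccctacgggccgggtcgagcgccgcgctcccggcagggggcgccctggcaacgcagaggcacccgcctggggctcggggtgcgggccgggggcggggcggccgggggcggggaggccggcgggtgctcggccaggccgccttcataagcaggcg
*Alpl*, window at chr4:137766426-137766725: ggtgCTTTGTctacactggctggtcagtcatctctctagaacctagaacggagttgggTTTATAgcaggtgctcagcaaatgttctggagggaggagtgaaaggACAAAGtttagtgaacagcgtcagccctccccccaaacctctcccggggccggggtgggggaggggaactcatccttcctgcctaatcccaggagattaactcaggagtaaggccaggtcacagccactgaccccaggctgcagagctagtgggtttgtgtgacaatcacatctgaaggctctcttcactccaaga
*Hspb8*, window at chr5:116422815-116423114: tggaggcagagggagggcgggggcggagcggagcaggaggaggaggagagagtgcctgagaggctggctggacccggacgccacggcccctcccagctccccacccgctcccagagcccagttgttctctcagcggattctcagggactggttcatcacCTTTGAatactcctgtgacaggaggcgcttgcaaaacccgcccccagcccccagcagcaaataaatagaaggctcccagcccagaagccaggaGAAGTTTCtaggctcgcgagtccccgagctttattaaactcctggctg

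The first *Alpl* window, at the more upstream start site, held 1 CTTTGT match, which begins 215 bases before the start site, and the other held CTTTGT at 246 and 146 bases and TATAAA at 192 bases before its start site. The *Hspb8* window held CTTTGA at 91 bases before the start site and GAANNTTC from base 3 after it. Over 32851 windows of the same length, CTTTGT occurred in 18.7%, CTTTGA in 16.0%, TGGGAA in 25.6%, GAANNTTC in 7.86% and TATAAA in 13.6%. The windows of *Cxcl14* and *Vat1l* held none of the 5 motifs. A match describes letters only and says nothing about binding.

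*Alpl*, which encodes tissue-nonspecific alkaline phosphatase, was the most abundant of the 7 genes and lay above 97.3% of the tested genes. On GRCm38 it spans 137741733 to 137796384 of chromosome 4, with 12 exons in the longest transcript. Control libraries 1, 2 and 3 held 315, 213 and 348 TPM, and cKO libraries 1, 2 and 3 held 181, 205 and 299 TPM. Only cKO libraries 1 and 2 were below the lowest control library. The mean was 292 ± 70.4 TPM in control and 228 ± 62.5 TPM in cKO (SD, n = 3 each; exact permutation test, p = 0.2, where 0.1 is the smallest p that 3 against 3 allow). On the log2(TPM + 1) scale, which understates the change of low genes, the difference was -0.36 (standard error 0.26, 95% interval -0.96 to 0.25; limma, unadjusted p = 0.210, adjusted p = 1.00). The interval runs from 0.513 to 1.19 of the control level. The difference was -0.21 without control library 3 or cKO library 1 and -0.57 without control library 2 or cKO library 3, where the lowest unadjusted p from limma was 0.0596. *Alpl* is also expressed by odontoblasts and osteoblasts. The 6 markers of those cells summed to 857 to 2152 TPM in control and 1345 to 1904 TPM in cKO. Of the 6, 1, *Bglap*, met the criteria and was higher in cKO, where 4.02% of all tested genes met them. The part of those cells in the *Alpl* level was not tested.

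**Figure D1:**
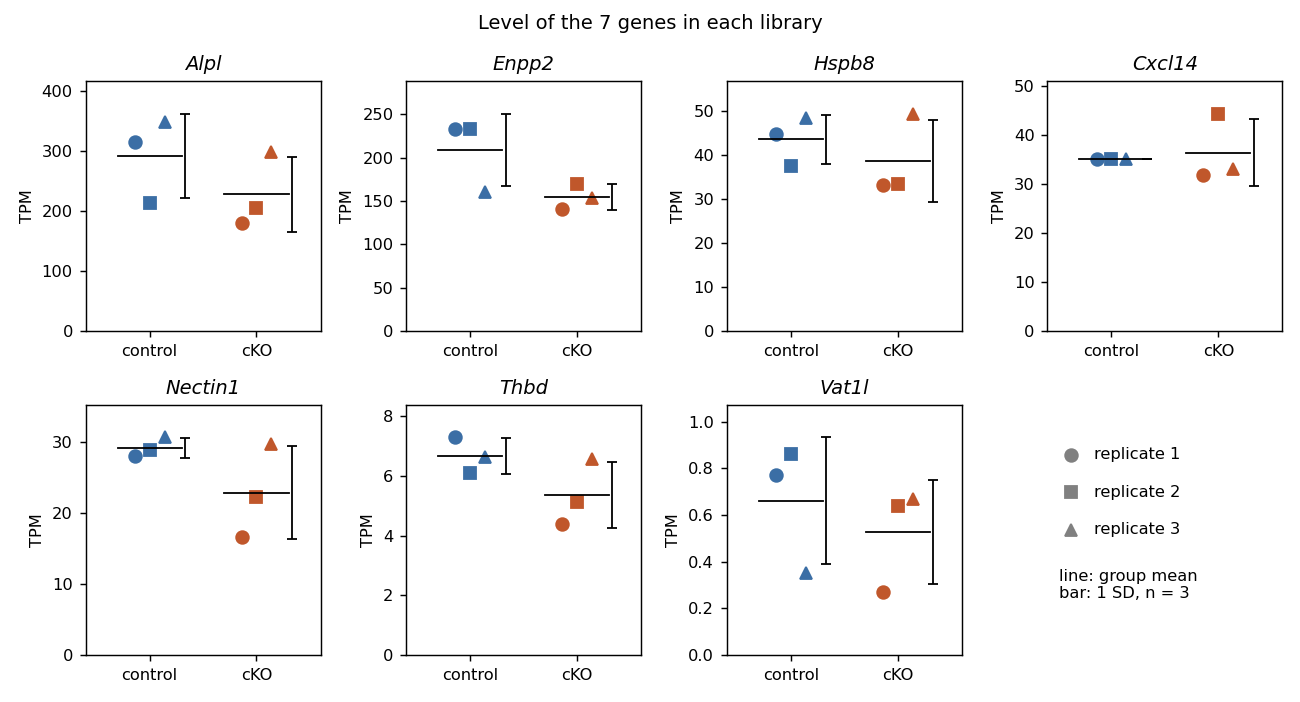
Level of each gene in TPM (y axis, 1 panel per gene with its own scale) in the 3 control and 3 cKO libraries, with points for libraries, a line for the group mean and a bar for the SD. The groups overlap in all 7 panels, and cKO library 3 is the highest cKO library in 5 of them.

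*Enpp2*, which encodes autotaxin, the secreted enzyme that makes lysophosphatidic acid, had the lowest cKO mean relative to control. It lies on chromosome 15 from 54838901 to 54952892 with 25 exons. The control values were 233.02, 233.11 and 160 TPM, and the cKO values were 140, 169 and 154 TPM. The groups overlapped because control library 3 lay below cKO library 2. The mean was 209 ± 41.9 TPM in control and 155 ± 14.5 TPM in cKO (SD, n = 3 each; exact permutation test, p = 0.2). The log2 difference was -0.41 (standard error 0.19, 95% interval -0.86 to 0.03; limma, unadjusted p = 0.0649, adjusted p = 1.00). Of 14 alternative settings that do not use the replicate number, *Enpp2* had a lower fitted level in cKO in 14 and met the criteria in 4. These were quantile normalization, where 4.73% of all genes met them, scaling on protein-coding genes other than *Amelx* and *Ambn* (6.06%), the length and GC correction (4.52%), and the fit without control library 3 (8.45%). In the last, the difference reached -0.59 (limma, unadjusted p = 0.00706). It was -0.33 without control library 1, -0.32 without control library 2 and -0.35 without cKO library 1. The unadjusted p from limma was then 0.192, 0.163 and 0.169. The exons of *Enpp2* share 345 bases with *Gm26684* on the opposite strand, which reached at most 0.18 TPM.

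*Cxcl14*, which encodes a secreted chemokine of epithelia, showed the smallest difference. It lies on chromosome 13 from 56288643 to 56296551 with 4 exons. It was measured at 35.04, 35.09 and 35.13 TPM in control and at 31.9, 44.4 and 32.97 TPM in cKO. Control libraries lay within 0.09 TPM of each other, whereas cKO library 2 was above and cKO libraries 1 and 3 below all of them. The mean was 35.1 ± 0.0451 TPM in control and 36.4 ± 6.89 TPM in cKO (SD, n = 3 each; exact permutation test, p = 1.0). The log2 difference was 0.04 (standard error 0.18, 95% interval -0.38 to 0.45; limma, unadjusted p = 0.841, adjusted p = 1.00). It turned to -0.11 without cKO library 2 and to -0.011 under the scaling without *Amelx* and *Ambn*.

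*Thbd* encodes thrombomodulin, the cell surface receptor that lets thrombin activate protein C. It is a single-exon gene on chromosome 2 from 148404466 to 148408188. Control libraries held 7.29, 6.09 and 6.62 TPM against 4.38, 5.12 and 6.58 TPM in cKO, with cKO library 3 inside the control range. The mean was 6.67 ± 0.601 TPM in control and 5.36 ± 1.12 TPM in cKO (SD, n = 3 each; exact permutation test, p = 0.2). The log2 difference was -0.28 (standard error 0.21, 95% interval -0.78 to 0.22; limma, unadjusted p = 0.228, adjusted p = 1.00). Endothelium also expresses *Thbd*. Of 6 endothelial markers, 6 had a lower fitted level in cKO, against 60.3% of all tested genes. Of the 6 markers, 2, *Cdh5* and *Tek*, met the criteria, as did 4.02% of all tested genes. After a correction for length and GC content, 0 of the 6 met them. The summed level of the 6 markers was 67.7 to 108 TPM in control and 56.3 to 78.8 TPM in cKO, and its part in the *Thbd* level was not tested.

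*Nectin1* encodes an immunoglobulin-like adhesion molecule of adherens junctions. It lies on chromosome 9 from 43743984 to 43807461 with 6 exons. The 3 control values were 27.9, 28.8 and 30.6 TPM, against 16.6, 22.2 and 29.7 TPM for cKO. The control libraries lay close together, cKO libraries 1 and 2 were below them, and cKO library 3 was among them. The mean was 29.1 ± 1.36 TPM in control and 22.8 ± 6.55 TPM in cKO (SD, n = 3 each; exact permutation test, p = 0.3). The log2 difference was -0.37 (standard error 0.23, 95% interval -0.90 to 0.16; limma, unadjusted p = 0.140, adjusted p = 1.00). Without cKO library 3 it was -0.57 (limma, unadjusted p = 0.0289) and met the criteria, as did 6.93% of all genes in that fit, and without cKO library 1 it was -0.17 (limma, unadjusted p = 0.404).

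*Hspb8* encodes a small heat shock protein that works with the co-chaperone encoded by *Bag3*. It lies on chromosome 5 from 116408491 to 116422864 with 3 exons. Control libraries held 44.9, 37.6 and 48.4 TPM against 33.1, 33.4 and 49.4 TPM in cKO, so that the highest of the 6 libraries was a cKO library. The mean was 43.6 ± 5.52 TPM in control and 38.7 ± 9.32 TPM in cKO (SD, n = 3 each; exact permutation test, p = 0.6). The log2 difference was -0.19 (standard error 0.21, 95% interval -0.68 to 0.30; limma, unadjusted p = 0.400, adjusted p = 1.00). The difference was -0.09 without cKO library 1, -0.10 without cKO library 2, -0.11 without control library 3, -0.29 without control library 2 and -0.37 without cKO library 3. Against 2.47% of all tested genes, 2 of 6 other heat shock response genes met the criteria and were lower in cKO. They were *Hspa1a*, at 38.9 ± 17.4 TPM in control and 11.0 ± 4.15 TPM in cKO, and *Hspa1b*, at 98.1 ± 46.1 and 24.7 ± 6.15 TPM (SD, n = 3 each), near-identical genes whose reads may be split between them. Of 7 immediate early genes, which respond to stimuli within minutes, 7 had a higher fitted level in cKO, with a median of 0.90. Over all tested genes, 60.3% were lower. Of the 7 genes, 2, *Junb* and *Ier2*, met the criteria, as did 4.02% of all tested genes. The summed level of the 7 was 92.7 to 548 TPM in control and 379 to 457 TPM in cKO, and the part of either response in the *Hspb8* level was not tested. Skeletal muscle is also rich in *Hspb8*. Its 6 markers summed to 0.55 to 0.63 TPM in control and 0.32 to 1.09 TPM in cKO, and its part in the *Hspb8* level was not tested.

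*Vat1l*, whose product resembles the vesicle amine transport protein encoded by *Vat1*, was the least abundant of the 7 genes. It lies on chromosome 8 from 114205612 to 114374071. It was read at 0.77, 0.86 and 0.35 TPM in control against 0.27, 0.64 and 0.67 TPM in cKO, a mean of 0.66 ± 0.272 and 0.527 ± 0.223 TPM (SD, n = 3 each; exact permutation test, p = 0.5). The difference on the log2 scale was -0.12, and it was 0.0094 without cKO library 1.

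The order of the mean levels was *Alpl*, *Enpp2*, *Hspb8*, *Cxcl14*, *Nectin1*, *Thbd* and *Vat1l*. *Alpl* was above *Enpp2* in 5 of 6 libraries, and *Hspb8* above *Cxcl14* in 5 of 6. The other neighbours kept their order in 6 of 6 libraries. Together the 7 genes made up 0.0668%, 0.0559% and 0.0636% of the TPM in control libraries 1, 2 and 3, and 0.0414%, 0.0486% and 0.0579% in the cKO libraries. *Amelx*, the main enamel matrix gene, made up 16.5% to 20.6% of the TPM in control and 8.65% to 18.1% in cKO, and its part in the levels of the 7 genes was not tested beyond the scaling without it.

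The median log2 difference of the 6 tested genes was -0.32, against -0.07 over all tested genes, of which 60.3% were lower in cKO. The difference moved with transcript length over all protein-coding genes, from a median of 0.17 in the shortest to -0.29 in the longest of 10 length groups. *Nectin1* has the longest transcript of the 7, at 5653 bases, and the median of its length group was -0.22. With transcript length and GC content corrected for, the median of the 6 genes was -0.17, against 0.00 over all genes. *Nectin1* then moved to -0.10 (unadjusted p = 0.586 from limma) and *Thbd* to -0.15 (unadjusted p = 0.422 from limma). *Enpp2* stayed at -0.41, with an unadjusted p of 0.0330 and an adjusted p of 0.999 from limma.

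**Figure D2:**
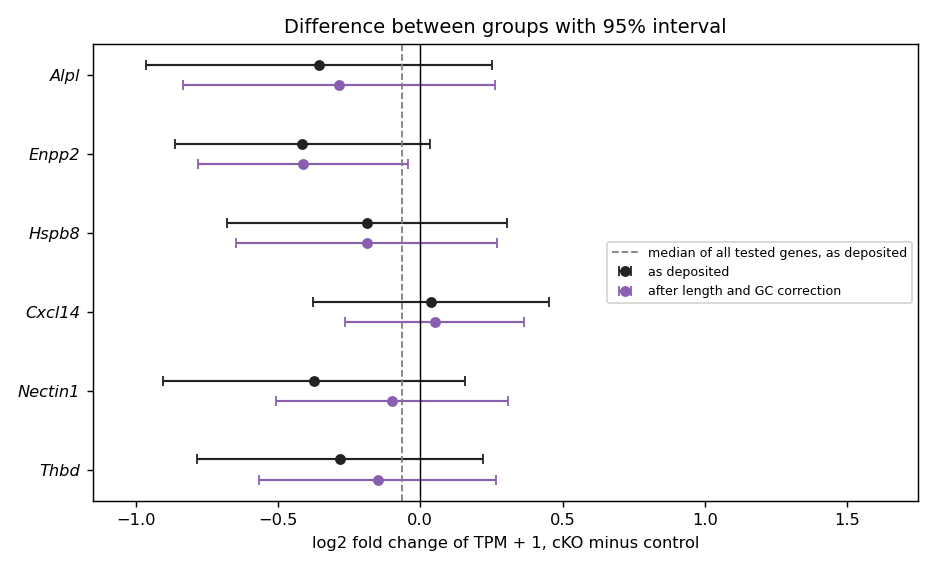
Log2 fold change of TPM + 1, cKO minus control (x axis), with 95% intervals from limma for the 6 tested genes, as deposited and after the length and GC correction, and a dashed line at the median of all tested genes. All intervals as deposited include 0, and after the correction that of *Enpp2* does not.

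Over the 6 libraries, 4 genes varied together. The Pearson correlation of log2(TPM + 1) was 0.80 to 0.95 in the 6 pairs among *Alpl*, *Hspb8*, *Thbd* and *Nectin1*, which were grouped after their values were seen. *Alpl* and *Hspb8* had the highest value, 0.95, and *Thbd* and *Nectin1* had 0.92. *Enpp2* and *Vat1l* reached 0.80 with each other. *Cxcl14* stood apart, at -0.37 to 0.29 with the other members. These values describe 6 libraries that share their scaling and the difference between groups.

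**Figure D3:**
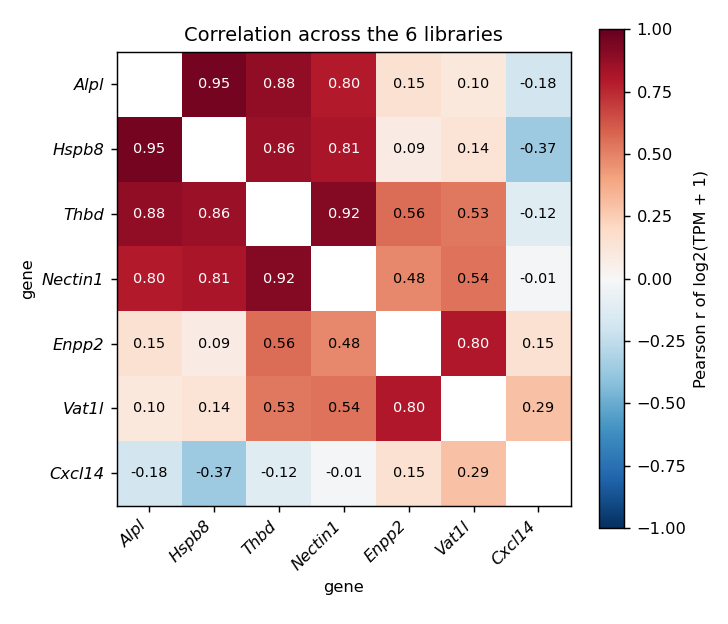
Pearson correlation of log2(TPM + 1) over the 6 libraries for the 21 pairs of genes (rows and columns are genes, colour and number give r). *Alpl*, *Hspb8*, *Thbd* and *Nectin1* have r of 0.80 to 0.95 with each other, and *Cxcl14* is at most 0.29 with any other gene shown.

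Other protein-coding genes were as close. Among 7034 genes averaging 10 TPM or more, the closest to *Alpl* were *Lad1* (r = 0.999), *Psap* (0.996) and *Ddx24* (0.990), over 6 libraries. For *Enpp2* they were *Arhgef12* (r = 0.996), *Med13l* (0.995) and *Zfp106* (0.993), and for *Nectin1* they were *Ndrg1* (r = 0.998), *Ppp1r13b* (0.996) and *Keap1* (0.995). For *Hspb8* they were *C1qtnf6* (r = 0.996), *Megf6* (0.996) and *Trim29* (0.994). For *Thbd* they were *Bak1* (r = 0.998), *Prpf8* (0.994) and *Dag1* (0.994). An r above 0.9 was reached by 201 genes with *Alpl*, 342 with *Enpp2* and 310 with *Thbd*, but by only 36 with *Cxcl14*.

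Genes related to the 7 by pathway, family or related function were taken from 7 lists. Of 48 such genes, 40 were tested. While 60.3% of all tested genes were lower in cKO, 32 of the 40 had a lower and 8 a higher fitted level. Of the 40, 0 met the criteria or were called by adjusted p from limma. Their median was -0.13, and -0.04 after the length and GC correction, where 1 gene, *Phospho1*, met the criteria and was higher in cKO (limma, unadjusted p = 0.0187). Among genes of phosphate handling, the phosphate transporter gene *Slc20a2* lay at 219 to 227 TPM in control and 143 to 215 TPM in cKO, and *Phospho1*, a phosphatase gene of mineralizing cells, at 9.72 to 13.7 TPM and 14.98 to 17.5 TPM. In the lysophosphatidic acid list, the receptor gene *Lpar1* lay at 28.6 to 55.9 TPM in control and 37.0 to 47.0 TPM in cKO. *Plpp3* of that list was at 34.0 to 44.9 TPM in control and 25.7 to 33.7 TPM in cKO. *Ackr3*, a scavenger receptor for *Cxcl12*, was at 53.3 to 59.7 TPM and 49.1 to 60.2 TPM.

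Of the thrombin and protein C genes, *F2r*, a thrombin receptor gene, lay at 184 to 366 TPM in control and 264 to 298 TPM in cKO, and *Procr*, the protein C receptor gene, at 1.73 to 2.11 TPM and 1.04 to 1.64 TPM. *Bag3* lay at 20.4 to 28.1 TPM in control and 21.6 to 31.4 TPM in cKO. In the nectin and adhesion list, 10 of 10 genes had a lower fitted level, against 60.3% of all tested genes. The list median was -0.29, and 0 of the 10 met the criteria. *Nectin4* lay at 92.8 to 96.2 TPM in control and 60.8 to 88.6 TPM in cKO, with no overlap between the groups. The groups did not overlap in *Slc20a2*, *Phospho1*, *Plpp3* and *Procr* either, nor in 9.64% of all tested genes. After the length and GC correction, the median of the nectin and adhesion list was -0.13.

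Of 20 other genes listed for the non-ameloblast layers, 15 were tested. Not all are confined to those layers, as the paper reports a listed Notch ligand in the inner enamel epithelium. A lower fitted level in cKO was found for 13 of the 15, against 60.3% of all tested genes. Against 2.47% of all tested genes, 2 of the 15 met the criteria, both lower. The median was -0.32, and -0.21 after the length and GC correction. *Notch1*, a receptor gene known in the stratum intermedium, was at 14.95, 18.7 and 12.6 TPM in control against 5.44, 7.43 and 11.2 TPM in cKO. The groups did not overlap in *Notch1*, as in 9.64% of all tested genes. The log2 difference of *Notch1* was -0.90 (standard error 0.28; limma, unadjusted p = 0.0145, adjusted p = 1.00), and -0.52 after the length and GC correction, where its unadjusted p from limma was 0.0323. Without control library 2 or cKO library 1, *Notch1* no longer met the criteria (limma, unadjusted p = 0.0583 and 0.0555). *Dsp*, which encodes desmoplakin of the desmosome, was at 145, 108 and 93.2 TPM in control against 52.7, 70.8 and 92.4 TPM in cKO. Its difference was -0.69 (standard error 0.25; limma, unadjusted p = 0.0302, adjusted p = 1.00), and after the correction -0.33, where its unadjusted p from limma was 0.185. *Dsp* no longer met the criteria without control library 1 or 2 or cKO library 1 or 2, with unadjusted p from limma between 0.0590 and 0.110. Of 15 ameloblast genes, 10 had a lower fitted level, against 60.3% of all tested genes. The list median was -0.10, and -0.25 after the correction, and 0 met the criteria in either fit. As deposited, the differences of the 15 ran from -0.86, in *Ambn*, to 0.38. *Ambn* lay at 31405 to 33061 TPM in control and 8562 to 26263 TPM in cKO. Its groups did not overlap, as in 9.64% of all tested genes (limma, unadjusted p = 0.0766).

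**Figure D4:**
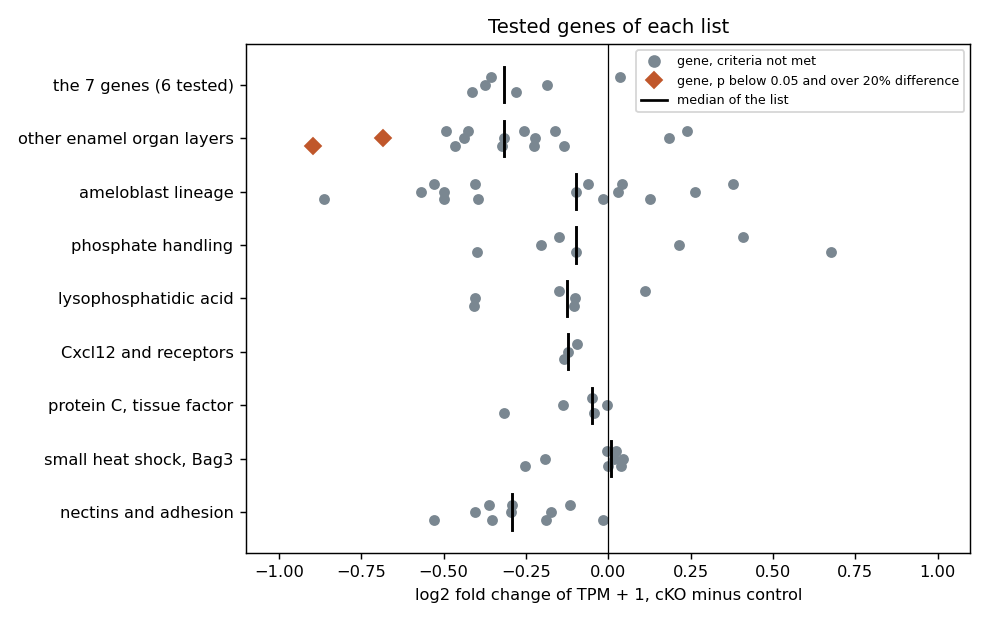
Log2 fold change of TPM + 1, cKO minus control, for the tested genes of the lists shown, which leave out that of *Vat1l*. Diamonds are genes that met the criteria, and a mark gives the list median. *Notch1* and *Dsp* are the diamonds among the other layer genes, at -0.90 and -0.69. The 6 tested genes of the 7 described have none, and *Vat1l* was not tested.

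As a check of the labels, *Wnt10a* lay between 51.2 and 57.9 TPM in control and between 21.8 and 32.2 TPM in cKO. Epithelial markers summed to 4959 to 6951 TPM in control and 4628 to 6498 TPM in cKO, and mesenchymal markers to 3023 to 5576 TPM and 3876 to 4188 TPM. The 6 oral surface markers in the table summed to 20.8 to 24.3 TPM in control and 23.1 to 25.2 TPM in cKO, most of it *Krt10* at 12.2 to 17.7 TPM, while *Krt13* and *Krt4* reached at most 0.50 and 0.08 TPM. Erythroid markers summed to 1325 to 1978 TPM in control and 1161 to 1282 TPM in cKO, with no overlap. Among all tested genes, taken singly, 9.64% had no overlap. All 5 erythroid markers had a lower fitted level, against 60.3% of all tested genes. Of the 5, 1, *Hbb-bs*, met the criteria (4.02% of all tested genes), and 3 after the length and GC correction (4.52%). The part of these cell types in the levels of the 7 genes was not tested.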

How the data were processed

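Dental epithelium of the mandibular first molar was sequenced in 3 control and 3 cKO libraries, numbered 1 to 3 by their titles. The column names of the table end in 1, 3 and 4 in both groups. Per the methods, reads passed through SeqPrep and Sickle, were mapped by HISAT2, and RSEM gave the gene abundances. The submitters' processing notes also name StringTie. Build, annotation and strandedness are not given in the sources used here. The methods name FPKM, but the values the authors deposited are TPM by their library sums of 983952 to 993946. Depth is lost in TPM and is unknown, so precision rests on the 3 libraries per group.

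The deposited TPM were turned into log2(TPM + 1), and the 13719 of 55487 genes averaging 1 TPM or more were fitted in limma 3.58.1 (R 4.3.3), using a mean-variance trend but no block. P-values were adjusted by Benjamini-Hochberg over those 13719 genes. Single genes were compared by a two-sided exact permutation test on the TPM. The criteria taken from the study are an unadjusted p below 0.05 and means differing by more than 20% of the control mean. The length and GC correction removed from each library a spline (4 degrees of freedom) of its deviations on either property. Positions and lengths of the longest transcript come from GENCODE M21 on GRCm38, which is not known to be the build of the files.

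All 7 members are named. From each gene list, the genes that met a call rule and at most 5 others with the highest mean TPM could be named, with the 3 protein-coding genes of at least 10 TPM closest to each member. The members and lists were chosen with earlier results of these data known. The 16 alternatives covered the pseudocount, the filter, scaling, the length and GC correction, the replicate number, the trend, Student's test and leaving out each library.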

Additional observations from a re-analysis of the deposited data

How the results depend on the processing

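The depth is unknown, and the alternatives planned for counts were left out, as TPM are no counts. No member had an adjusted p below 0.05 under any of the 16 alternatives. *Cxcl14* turned to -0.011 after rescaling on protein-coding genes other than *Amelx* and *Ambn* and to -0.11 without cKO replicate 2, and lay between -0.11 and 0.12 over the fits that leave out 1 library. Over all tested genes, limma called 2 by adjusted p as deposited, 4 with a pseudocount of 0.1, 4 with quantile normalization, 4 with the replicate number as a block, 1 without the filter and 1 with the block and the length and GC correction. It called 0 after the rescaling (739 at an unadjusted p below 0.05), and Student's test called 0 (544 at an unadjusted p below 0.05). Leaving out each library gave 2 to 9. The criteria were met by 552 genes as deposited, 940 without the filter, 1315 under the block and 1109 when it was joined by the correction. Leaving out each library gave 204 to 1159, with 237 without control library 1, 1159 without control library 3, 204 without cKO library 1, 282 without cKO library 2 and 951 without cKO library 3. The split was 213 higher and 339 lower as deposited, 324 and 325 with quantile normalization, and 102 and 637 after the rescaling; the cause was not tested. Same-numbered libraries deviated with r of -0.08, 0.29 and 0.40, and libraries of unlike number with r of -0.40 to 0.18. The design text and the methods speak of pairs without saying what they share. The main fit took the libraries as unpaired, and whether the numbers pair them is not settled. *Enpp2* met the criteria with the block (limma, unadjusted p = 0.0460, adjusted p = 0.519), as did 1315 of 13719 genes. With the block and the correction *Enpp2* also met them (limma, unadjusted p = 0.0263), as did 1109 of 13707 genes. Of the 40 tested genes related to the members by pathway, family or function, 4 met them with the block, *Slc20a2*, *Nectin4*, *Tjp1* and *Vat1*. That share is near the 1315 of 13719 over all genes.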
